A study of Hakea prostrata with 26 samples.

Results

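The genes described were lower in mature leaves of Hakea prostrata at each higher phosphate (Pi) supply in hydroponics. Their means over the growth stages of wild leaves also stayed within a set bound. Such genes number 16 of the 25047 genes in the table. The values are estimated counts from RNA sequencing, summed over the isoforms of each Trinity gene, a cluster of assembled transcripts. They are given as CPM, counts scaled to library size with TMM factors over all 26 libraries, or as x, which is log2(CPM + 1). A gene was chosen when x in mature leaf was at least 4 at 1 uM Pi, lower by at least 0.5 at each step to 10 and to 50 uM, and lower by at least 2 in all. The means of its 5 wild leaf groups also had to span under 1.5. Genes within this bound are called flat below, although it allows a 2-fold difference between stages. The genes were thus chosen by their measured values in mature and wild leaf, so the fall in mature leaf is a description and was not tested. At most 150 genes could be taken, and this limit was not reached.

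Hakea prostrata is a shrub of the Proteaceae, and the labels name no genotype or transgene. Plants in hydroponics gave mature leaves and white roots at 1, 10 and 50 uM Pi, and cluster roots at days 0, 1, 4, 7 and 12, with 1 library per condition and so no replicate. Leaves of naturally growing plants at a field site gave 15 libraries, 3 at each of stages 1, 2, 3, 4 and M, and the labels do not say what M stands for. A sample of each stage was taken from each of 5 plants, and the 3 with the best RNA per stage were sequenced, so replicates within a stage are separate plants while the stages draw on the same plants. Ages of the plants and Pi in the field soil are not given in the labels. Libraries summed to 17130939 to 20283815 estimated counts in mature leaf, 9486439 to 11508234 in white root, 8163081 to 10857613 in cluster root and 1517487 to 11418655 in wild leaf.

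Plants short of Pi switch on a set of genes for taking up, releasing and saving phosphate. These include Pi transporters, acid phosphatases that free Pi from organic compounds, enzymes that replace phospholipids by sulfolipids and galactolipids, and SPX proteins, which sense inositol pyrophosphates and hold back the PHR transcription factors while Pi is plentiful. Cluster roots are dense groups of rootlets formed by Proteaceae on poor soils, which release carboxylates and phosphatases before they age. The IDs are not paired with gene names, so none of the 16 could be assigned to such a family, and no list of phosphate starvation genes or of organ markers could be matched. Libraries are therefore described by their labels, and only the IDs that each comparison turns on are printed.

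In mature leaf, the 16 genes differed far more in level than in the size of their fall. The rule set a lower bound on both, so this is a description. Levels at 1 uM Pi ran from 16.9 to 350 CPM with a median of 33.4 CPM, at 10 uM from 8.86 to 171 CPM with a median of 19.9 CPM, and at 50 uM from 1.52 to 69.3 CPM with a median of 6.10 CPM. The ratio of CPM at 1 uM to CPM at 50 uM lay between 4.20 and 11.3, with a median of 5.42. In all 16 genes the step from 10 to 50 uM (1.06 to 2.68 in x, median 1.47) was larger than the step from 1 to 10 uM (0.52 to 1.07, median 0.68), although it spans a smaller ratio of Pi. The rule used these values, and the same held for 67.7% of the 1681 flat genes that were lower at both steps, so nothing is read from the count. RNA came from whole organs, so fewer cells of a type and less RNA per cell cannot be told apart in any of these values.

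The largest drop was that of TRINITY_DN5289_c0_g1. Its leaf level was 91.0 CPM at 1 uM Pi, 57.1 CPM at 10 uM and 8.06 CPM at 50 uM. The level at 1 uM was 11.3 times that at 50 uM, with an exact binomial 95% interval of 9.49 to 13.5. TRINITY_DN1037_c1_g1, the next in size, stood at 42.5 CPM at 1 uM, 19.7 CPM at 10 uM and 4.20 CPM at 50 uM, a ratio of 10.1 (7.94 to 13.1). These intervals cover counting error only and say nothing of the spread between plants, which 1 library per supply cannot show. The smallest count behind a leaf value was 26 (exact Poisson 95% interval 17.0 to 38.1), at 50 uM.

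**Figure D1:**
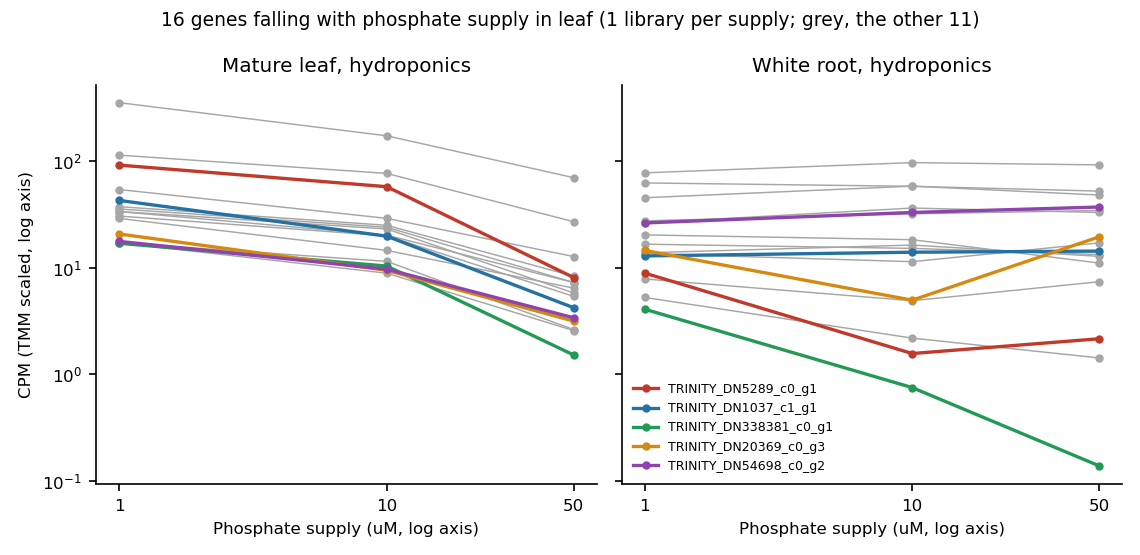
CPM of the 16 genes (log axis) against Pi supply (log axis) in mature leaf, left, and white root, right, with 1 library per supply; the 5 coloured lines are genes named for leaf or white root and grey lines the other 11. All lines go down in leaf, where they were chosen to, while in white root the red and green lines are highest at 1 uM and the purple line is highest at 50 uM.

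The thresholds cut through a continuous range of leaf responses. The member nearest the bound on the total fall had 2.003 in x and the nearest gene outside had 1.999, and 91 genes met every other condition but fell short of that bound. Another 53 genes met all leaf conditions but spanned 1.5 or more over the wild leaf stages, the nearest at 1.56 against 1.29 in the member closest to the bound. At the step from 1 to 10 uM the nearest values were 0.524 inside and 0.487 outside, at the step from 10 to 50 uM 1.06 and 0.196, and for the level at 1 uM 4.16 and 3.90. Among the 5186 genes that were flat over the wild stages and had x of at least 4 at 1 uM, the median of x at 1 uM minus x at 50 uM was 0.08 after TMM scaling, which centres the libraries, and -0.03 with library totals. The list depended on the scaling: with library totals 14 genes met the rule, of which 6 were among the 16. Scaling enters the wild stage means as well as the leaf differences. TMM factors were 1.29 to 1.33 in the stage 1 libraries and 0.439 to 0.582 in those of stage M. Which condition of the rule the lost genes failed with library totals was not examined. The mirrored rule, for genes rising with Pi, found 108 genes.

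The isoforms that make up the sums were as follows. Of the 16 genes, 8 had a single isoform in the table and the other 8 had up to 5. The genes had 20 isoforms with at least 10% of their gene's leaf counts at 1 uM, and 19 of these were lower at each step. This follows largely from the choice, since a single isoform equals its sum, and in the other genes the most abundant isoform held a median of 89.8% of the leaf counts at 1 uM. The exception was a minor isoform of TRINITY_DN20369_c0_g3, listed at 2.50 CPM at 1 uM and at 0 at both higher supplies. Isoforms of a gene share reads, so these values are less certain than the sums. When transcripts were not summed, 134 transcripts met the same thresholds, and their genes included 13 of the 16.

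Other assembled genes in the same Trinity component, which can be close copies or pieces of one gene, did not all follow. The 16 genes came from 16 components, and 5 of these held 6 further genes. The partner of TRINITY_DN1707_c1_g2 had a leaf level of 72.9 CPM at 1 uM, 40.7 CPM at 10 uM and 10.8 CPM at 50 uM, a parallel drop. The partner of TRINITY_DN5289_c0_g1 was more abundant and changed less, with 556 CPM at 1 uM, 457 CPM at 10 uM and 412 CPM at 50 uM. A further component held a partner at 373.5 CPM at 1 uM, 444 CPM at 10 uM and 512 CPM at 50 uM, and its summed difference was -0.13 in x. Summing whole components left a difference between 1 and 50 uM of -0.13 to 2.49 in x for the 5 genes with partners (median 1.20). Reads could have been split between such partners in the authors' quantification, so the values of these 5 genes are uncertain.

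In wild leaves the mean was within 1 in x of the hydroponic leaf at 1 uM for 13 of the 16 genes, a share near the 84.4% of the 5186 flat genes. The mean x over the 15 wild leaf libraries lay above the leaf at 1 uM in 6 of the 16 genes, between the leaves at 10 and 1 uM in 7, between those at 50 and 10 uM in 2 and below that at 50 uM in 1. In 15 of the 16 the lowest of the 15 wild leaf libraries was above the leaf at 50 uM, where 19.9% of the flat genes had it so. The wild mean minus the leaf at 1 uM had a median of -0.28 and ran from -3.91 to 1.33. The wild mean minus the leaf at 50 uM had a median of 2.10 and ran from -1.08 to 3.67.

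Among the 5186 flat genes with x of at least 4 at 1 uM, the wild mean was above the leaf at 1 uM in 37.8%, above that at 10 uM in 39.9% and above that at 50 uM in 43.3%. Their median differences were -0.18 from the leaf at 1 uM and -0.13 from the leaf at 50 uM. The 16 genes were selected for low values at 50 uM and high ones at 1 uM, so part of this placement is set by the choice, and it was not tested. Field and hydroponic plants also differed in site and growth conditions, which cannot be told apart here. Growth stage was not matched either, since the hydroponic leaves were mature while the wild mean pools all stages. In TRINITY_DN1707_c1_g2 the wild mean minus the leaf at 1 uM was -0.13 in x. Its stage M mean was 51.9 CPM, above the 33.4 CPM of that leaf. In TRINITY_DN247_c0_g1 the stage M mean of 51.5 CPM stayed below the 53.8 CPM of that leaf. How many genes would change place at single stages was not counted.

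**Figure D2:**
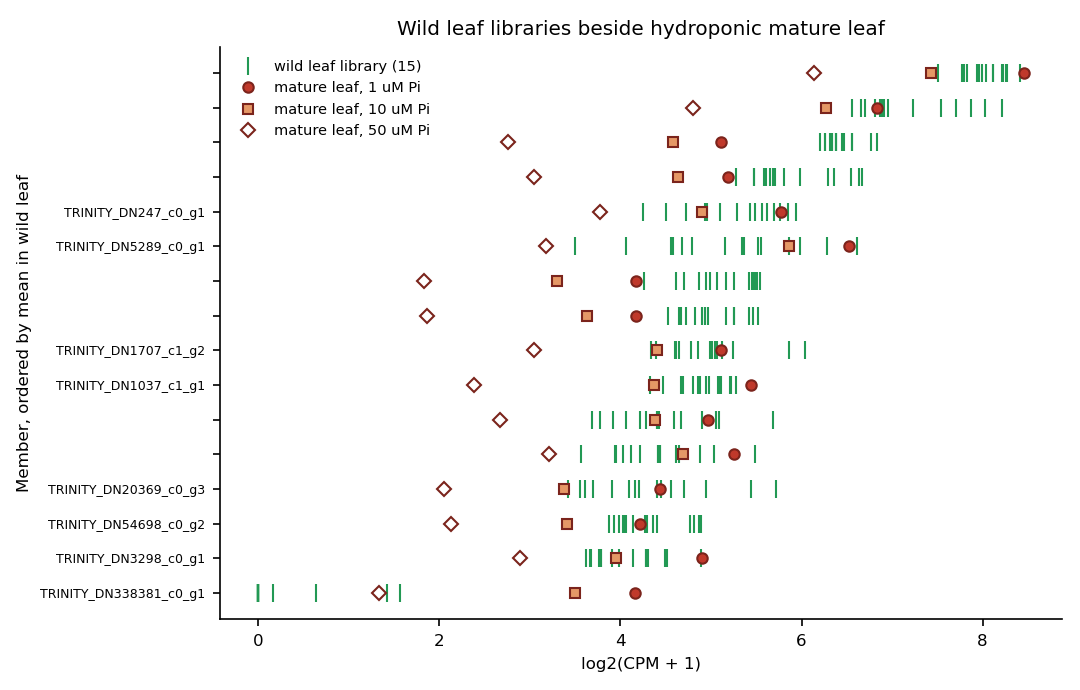
log2(CPM + 1) of each of the 16 genes, ordered by its mean in wild leaf, in the 15 wild leaf libraries (green ticks) and in hydroponic mature leaf at 1, 10 and 50 uM Pi (markers). In 15 genes all green ticks lie to the right of the open diamond for 50 uM; in TRINITY_DN338381_c0_g1 they lie between 0 and 1.56.

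TRINITY_DN338381_c0_g1 was the gene that wild leaves all but lacked. It was at 0 in 11 of the 15 wild leaf libraries, at 0.123 CPM in stage 1 replicate 2, at 0.557 CPM in stage 4 replicate 2, and at 1.69 and 1.95 CPM in stage M replicates 1 and 3. These values rest on 8 counts over all 15 libraries. In hydroponic leaf it had 16.9 CPM at 1 uM Pi, 10.3 CPM at 10 uM and 1.52 CPM at 50 uM, and its highest wild stage mean, 1.21 CPM at stage M, was below the leaf at 50 uM. Its stage means spanned 0.995 in x, within the bound, at levels near 0.

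For the stages themselves, the choice bounded the result. The span of the 5 stage means ran from 0.32 to 1.29 in x with a median of 0.94. It was at least 1, a 2-fold difference, in 7 of the 16 genes. The highest mean was at stage M in 10 of the 16 genes and at stage 1 in 2. How often other genes had it there was not counted. TMM factors were 1.29 to 1.33 in the stage 1 libraries and 0.439 to 0.582 in those of stage M. The place of the highest mean under another scaling was not examined. In edgeR's quasi-likelihood test over the 5 groups, 15 of the 16 genes were tested and 10 had an adjusted p under 0.05, where 68.0% of all tested genes did, and 10 had an unadjusted p under 0.05 (71.0%). With the replicate number as a further term, 12 of the 15 passed. Since the rule capped the stage differences, nothing is read from these counts or from the place of the highest mean. TRINITY_DN1037_c1_g1 was among the steadiest, with 32.9 ± 3.18 CPM at stage 1, 32.3 ± 1.62 CPM at stage 2, 24.6 ± 4.88 CPM at stage 3, 24.7 ± 3.56 CPM at stage 4 and 32.9 ± 7.12 CPM at stage M (SD, n = 3 each).

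Within the stages, the gene with the largest leaf drop differed between replicate numbers, which the choice of genes had not used. TRINITY_DN5289_c0_g1 had 10.3, 22.9 and 40.3 CPM in replicates 1, 2 and 3 of stage 1, and 22.5, 24.6 and 45.9 CPM in those of stage 2. It had 34.5, 44.9 and 62.2 CPM at stage 3, 26.6, 39.6 and 96.9 CPM at stage 4, and 15.7, 57.1 and 76.7 CPM at stage M, in the same order of replicates. Libraries numbered 3 were highest and libraries numbered 1 lowest in all 5 stages, and 1 of the 16 genes kept a single order of the numbers throughout, where 1.87% of the 5186 flat genes did. All the same, the ranges of neighbouring numbers over the stages overlapped (10.3 to 34.5, 22.9 to 57.1 and 40.3 to 96.9 CPM).

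Replicate number, tested beside stage, was a significant term for this gene (edgeR's quasi-likelihood test with Benjamini-Hochberg adjustment over 16668 genes, adjusted p = 0.000962). The mean x of libraries numbered 3 was 1.55 above that of libraries numbered 1. Without any 1 of the 15 libraries the adjusted p stayed between 0.000769 and 0.00444. Of the 15 genes tested it was the only member that passed, where 8.41% of all tested genes did, and 5 had an unadjusted p under 0.05, against 22.6% of all tested genes. The labels do not say whether a replicate number marks 1 plant, so plant, sampling and handling cannot be told apart in a difference between numbers.

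The next smallest p belonged to TRINITY_DN3298_c0_g1 (edgeR, adjusted p = 0.156), which did not pass. Its mean x in libraries numbered 3 was 0.40 above that in libraries numbered 1, and number 3 was above both other numbers in 5 of 5 stages. In 2 members, singled out after their values were seen, libraries numbered 3 were the lowest in all 5 stages. One was TRINITY_DN20369_c0_g3. Its libraries numbered 3 held 9.74 to 16.1 CPM and were below both other numbers in all 5 stages, with a mean x 1.00 below that of libraries numbered 1, and it did not pass either (edgeR, adjusted p = 0.175). The other had a mean x 0.487 lower in libraries numbered 3 than in those numbered 1 (edgeR, adjusted p = 0.200).

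**Figure D3:**
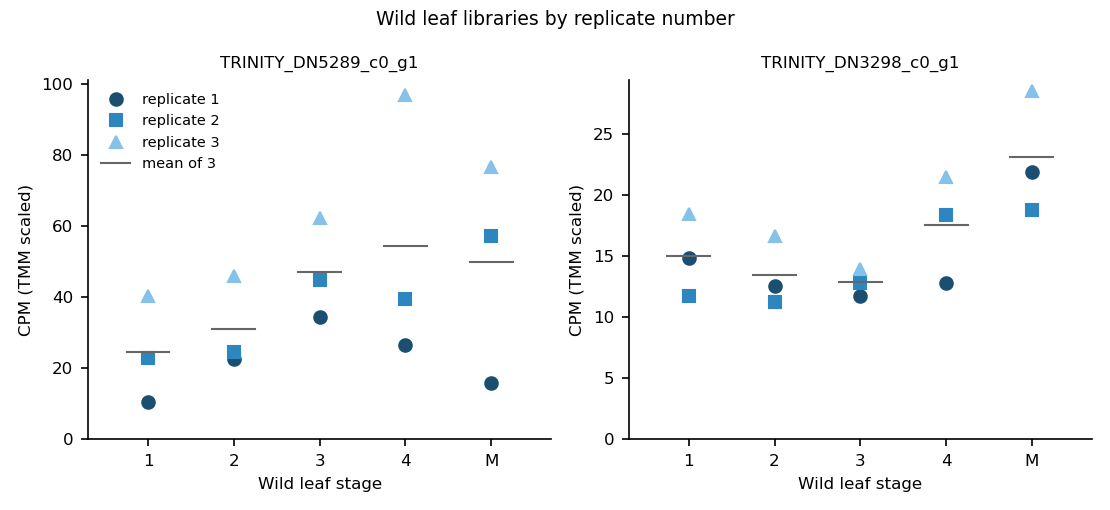
CPM in the 15 wild leaf libraries by stage, marked by replicate number, with grey bars for the mean of 3, for the 2 genes with the smallest p for replicate number. TRINITY_DN5289_c0_g1, left, is highest in replicate 3 and lowest in replicate 1 at every stage; TRINITY_DN3298_c0_g1, right, is highest in replicate 3 at every stage with a smaller gap.

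White roots, which the choice did not use, had higher levels at low Pi in a few of the 16 genes. A level at 1 uM at least 2-fold that at 50 uM, a difference of 1 or more in x, was seen in 3 of the 16, where 6.64% of the 17958 genes with mean x of at least 1 in white root reached it. No member was at least 2-fold lower at 1 uM, where 4.21% of genes were. Over all 16 the difference between 1 and 50 uM ran from -0.48 to 2.16 in x with a median of -0.003, and the median of the 17958 genes was -0.004. The values were lower at each step in 5 of the 16 genes (14.9% of all genes) and higher at each step in 3 (13.3%). In 1 gene, TRINITY_DN338381_c0_g1, both steps down were at least 0.5 in x, as in leaf (1.14% of all genes). In 9 of the 16, x varied by less than 0.5 over the 3 supplies. How many of the 17958 genes did so was not counted, so nothing is read from this.

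TRINITY_DN338381_c0_g1 had the largest difference in white root. It reached a mean x of 1 only through the library at 1 uM (x of 2.34 at 1 uM, 0.81 at 10 uM and 0.19 at 50 uM). It thus had to differ and is no support for the count of 3. Nor does it support the count of 5 lower at each step, or that of 1 with both steps at least 0.5. It stood at 4.08 CPM at 1 uM Pi, 0.753 CPM at 10 uM and 0.139 CPM at 50 uM, which rest on 73, 12 and 2 counts. The ratio of 1 to 50 uM was 29.3 with an exact binomial 95% interval of 7.83 to 247, a wide interval because of the 2 counts. TRINITY_DN5289_c0_g1 had 8.88 CPM at 1 uM, 1.57 CPM at 10 uM and 2.16 CPM at 50 uM, a ratio of 4.12 (2.79 to 6.27) between 1 and 50 uM. Its drop thus lay between 1 and 10 uM in white root, whereas in leaf most of it lay between 10 and 50 uM. The isoform that held 8.31% of its leaf counts at 1 uM gave 5.76 of the 8.88 CPM in white root at 1 uM and was at 0 at 10 uM. The third gene had 5.26 CPM at 1 uM, 2.19 CPM at 10 uM and 1.43 CPM at 50 uM, a ratio of 3.78 (2.31 to 6.46).

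In the other direction the differences were small. TRINITY_DN54698_c0_g2 had 26.1 CPM at 1 uM, 32.8 CPM at 10 uM and 36.9 CPM at 50 uM, a ratio of 0.709 (0.625 to 0.805) between 1 and 50 uM. TRINITY_DN20369_c0_g3 was lowest at the middle supply, with 14.5 CPM at 1 uM, 4.95 CPM at 10 uM and 19.4 CPM at 50 uM. TRINITY_DN1037_c1_g1, with the second largest drop in leaf, was nearly level at 12.9 CPM at 1 uM, 13.9 CPM at 10 uM and 14.3 CPM at 50 uM. Of the 94 genes of the mirrored rule that reached mean x of 1 in white root, 11 were at least 2-fold higher at 1 uM and 32 at least 2-fold lower.

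A line through the 3 white root libraries on log10 Pi leaves 1 residual degree of freedom. The spread behind its p-values is therefore largely borrowed from the other tested genes. No member passed that test (edgeR's quasi-likelihood test, 0 of 16), and 0.00524% of the 19079 tested genes did. DESeq2 likewise called 0 members, and 3 members had an unadjusted p under 0.05 in edgeR, where 6.04% of genes did. The slopes of the 3 genes that were at least 2-fold higher at 1 uM, in the order given above, were -2.72 (SE 0.63), -1.29 (SE 0.47) and -1.14 (SE 0.45) log2 units per 10-fold of Pi (edgeR, adjusted p = 0.349, 0.689 and 0.753). The count of 3 rests on the library at 1 uM: between 10 and 50 uM 0 members were at least 2-fold higher at the lower supply. The white root libraries at 1 and 10 uM had the same rounded total, 11508234, while 99.2% of the transcripts found in either differed in value, and both were used.

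In cluster roots, the genes changed with root age about as often as genes in general. Over days 0 to 12, 6 of the 15 genes that could be tested passed, where 35.1% of all tested genes did, and 8 had an unadjusted p under 0.05 (47.2%). Of the 16, 5 fell and 1 rose in this test of the slope on day over the 5 libraries (edgeR's quasi-likelihood test, adjusted p under 0.05), where 18.5% of all tested genes fell and 16.6% rose. The 5 that fell were also the 5 that were at least 2-fold lower at day 12 than at day 0 (23.7% of 17637 genes were), and 3 genes were at least 2-fold higher (24.0%). The shares upward and downward were thus near those of all genes for the folds with TMM scaling, and no test compared the 16 with other genes. The difference between day 12 and day 0 ran from -2.08 to 1.57 in x over the 16, with a median of -0.14, and its median over the 17637 genes was 0.13.

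TRINITY_DN247_c0_g1 had 15.3 CPM at day 0, 9.04 at day 1, 8.64 at day 4, 5.69 at day 7 and 2.85 CPM at day 12. It fell by 0.19 log2 units per day (SE 0.03; edgeR, adjusted p = 0.0098). TRINITY_DN1707_c1_g2 had 26.2 CPM at day 0, 30.3 at day 1, 28.9 at day 4, 14.2 at day 7 and 6.96 CPM at day 12, and fell by 0.18 per day (SE 0.04; edgeR, adjusted p = 0.0169). TRINITY_DN247_c0_g1 was lower at each later day, while TRINITY_DN1707_c1_g2 stayed near its starting level until day 4.

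TRINITY_DN54698_c0_g2 went the other way, with 19.6 CPM at day 0, 25.1 at day 1, 25.2 at day 4, 37.2 at day 7 and 51.2 CPM at day 12. It rose by 0.10 per day (SE 0.02; edgeR, adjusted p = 0.0124). TRINITY_DN20369_c0_g3 was at 1.497 CPM at day 0, 2.52 at day 1, 3.06 at day 4, 2.64 at day 7 and 6.39 CPM at day 12, with a slope of 0.13 (SE 0.04) that did not pass (edgeR, adjusted p = 0.0501; DESeq2, adjusted p = 0.0303). TRINITY_DN5289_c0_g1 showed no such course, with 5.93 to 9.58 CPM over the 5 days. TRINITY_DN338381_c0_g1 held 0 to 0.445 CPM and was too low to be tested.

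Several calls by age were lost when 1 of the 5 libraries was left out. Without the library of day 0, 1 of the 16 passed, and without that of day 12, 0 passed. The adjusted p of TRINITY_DN247_c0_g1 was then 0.0578 and 0.0527 (edgeR), with slopes of -0.16 and -0.17, close to the -0.19 with all days. That of TRINITY_DN54698_c0_g2 was 0.0507 and 0.0509 (edgeR), with slopes of 0.10 and 0.12. TRINITY_DN1707_c1_g2 missed the threshold without day 12 (slope -0.12; edgeR, adjusted p = 0.163) and without day 1 (slope -0.18; edgeR, adjusted p = 0.0535). With library totals in place of TMM the median of all genes moved to -0.28. Then 1 gene in place of 3 was at least 2-fold higher at day 12, and 7 in place of 5 were at least 2-fold lower. The shares of all genes with library totals were not counted.

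**Figure D4:**
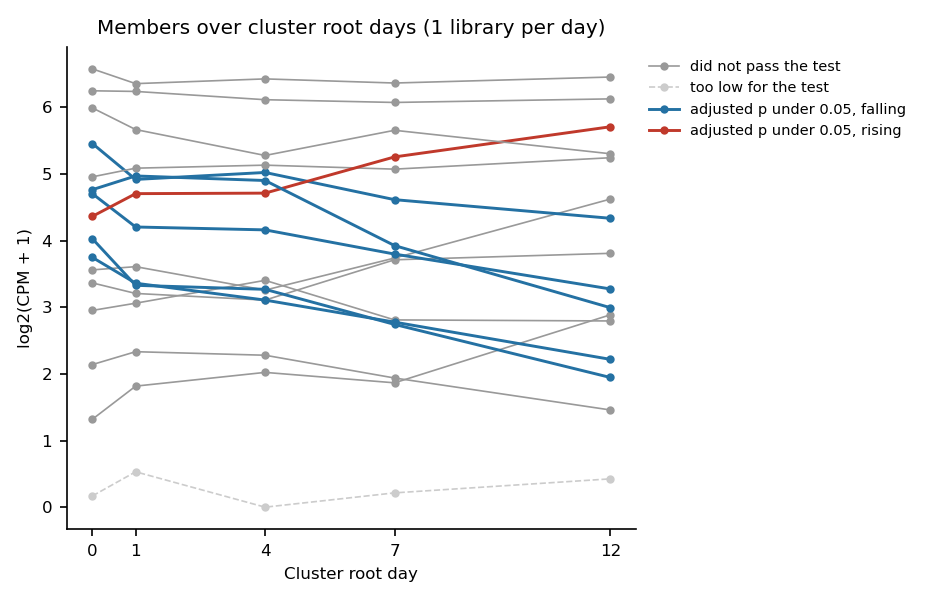
log2(CPM + 1) of the 16 genes against cluster root day, with 1 library per day; blue lines are the 5 genes that fell and the red line the 1 gene that rose in edgeR's test of the slope, and the dashed line was too low to test. The blue lines are lowest at day 12 and lie among the grey ones at every day.

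Between cluster roots and white roots, none of the genes passed a test in which the days and the Pi supplies served as the spread within each tissue. In edgeR's quasi-likelihood test 0 of 15 tested members had an adjusted p under 0.05, where 0.321% of the 19314 tested genes did (0.0207% higher and 0.300% lower in cluster root), 1 had an unadjusted p under 0.05 (10.0% of genes), and DESeq2 called 1. That gene, TRINITY_DN20369_c0_g3, had 1.497 to 6.39 CPM in the 5 cluster root libraries and 4.95 to 19.4 CPM in the 3 white root libraries, which overlap (log2 fold change -2.07, SE 0.52; edgeR, adjusted p = 0.199; DESeq2, adjusted p = 0.0136). In 1 of the 16 genes all 5 cluster root libraries were above all 3 white root libraries, where 3.60% of 17818 genes were, and in none were they all below (4.01%).

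Set against both kinds of root, wild leaves had the higher levels in 7 of the 16 genes. All 15 wild leaf libraries were above all 8 root libraries in these 7, where 11.5% of the 5186 flat genes were, and in none were they all below (4.51%). The flat genes and the 16 were both chosen for a level in leaf, so the organs were not compared by a test. The hydroponic leaf at 1 uM was above all 8 root libraries in 11 of the 16 genes (38.6% of the flat genes) and the highest of all 26 libraries in 4 (6.38% of the flat genes). The leaf at 50 uM was below all 8 in 8 genes (23.1% of the flat genes) and was the lowest of all 26 libraries in 8 genes, where 10.3% of the flat genes had their lowest value there. The leaf values that enter here chose the genes, so these last counts are a description.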

How the data were processed

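The authors deposited estimated counts for each assembled transcript, which can be fractional. Trim Galore 0.6.6, DESeq2 1.30.1 and kallisto (no version) appear in the submitters' processing notes, which assign them no step. The assembly is not given in the sources used here. RNA was prepared with a stranded kit after ribosomal RNA removal, per the labels' protocols.

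Counts were summed per Trinity gene and rounded for tests. Tests used edgeR 4.0.16 in R 4.3.3 (filterByExpr with a minimum count of 10 and total of 15, TMM within the libraries fitted, robust quasi-likelihood, Benjamini-Hochberg over all tested genes), checked on simulated data, with DESeq2 1.42.0 as an alternative. Other alternatives changed scaling, filter, pseudocount and summing, or left out libraries. An SE is the size of the log2 fold change divided by the root of F. Groups came from the labels. Replicates of a wild leaf stage are separate plants, per the labels' protocols, so p-values for stage measure the spread between plants. For replicate number they measure how far the differences between numbers vary over stages. In hydroponics they measure the spread of single libraries around a line or a tissue mean. In every edgeR test a gene's own spread is drawn toward that of the other tested genes. This weighs most where few residual degrees of freedom are left.

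The genes, lists and tests were chosen with earlier results of these data known. At most 2 members per direction of a comparison are named: those with the largest difference, or the smallest p for replicate number. No list of phosphate genes or organ markers was matched, since the IDs carry no gene names. For the summed genes, same-numbered wild leaf libraries of different stages deviated together from their stage means (30 of 30 pairs, r = 0.158 to 0.587). Libraries with other numbers did not (60 pairs, r = -0.424 to -0.0342). Deviations from a mean of 3 sum to 0, so these negative values follow from the positive ones and are no separate result. The 30 pairs also share the same 15 libraries. Any pairing of samples by number thus rests on these values and not on the labels. The main test of stage had no term for the number and so left this pairing out. Only the alternative with the number as a block included it.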

Additional observations from a re-analysis of the deposited data

Results flagged for a closer look

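In 3 of the 16 genes the white root values were higher at each step of Pi while the leaf values were lower at each step; 13.3% of all genes were higher at each step in white root, so the count is near that share. The white root difference between 1 and 50 uM in x was -0.48 in TRINITY_DN54698_c0_g2, -0.312 in a second gene and -0.14 in TRINITY_DN1037_c1_g1. In TRINITY_DN1037_c1_g1 the ratio of 1 to 50 uM was 0.901 (exact binomial 95% interval 0.743 to 1.09), within counting error. The difference between organs was not tested, since the leaf values chose the genes and each supply has 1 library per organ.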

How the results depend on the processing

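Of 389 pairs of a result and an alternative, 344 were judged the same. Of the 389, 204 only left out a library, and 184 of those were the same. A count was the same when it stayed within 1.5 times the main count, whichever genes it held. The fold of a single gene was the same when it moved by no more than its counting error, even across the 2-fold bound. A tested gene was the same when it stayed on its side of the p threshold without a reversed call. The rule was met by 14 genes with library totals (6 of them among the 16), 12 with a pseudocount of 2 (10 among the 16) and 13 components (12 with a member), by 20 genes with a pseudocount of 0.5 and 22 with TMM without the 20 most abundant genes (all 16 among both), and by 15 to 17 when a wild leaf library was left out. With isoforms not summed, 134 transcripts met it. Added after seeing the data, 10 against 50 uM gave 0 members at least 2-fold higher and 1 lower in white root, with TRINITY_DN5289_c0_g1 at -0.298. Day 7 against day 0 gave 0 members higher and 1 lower in cluster root, and library totals gave 1 higher and 7 lower at day 12. Genes called for the white root slope numbered 1, against 235 with DESeq2, 59 without a count filter and 120 with the spread of the wild leaves. For the cluster root slope, leaving out a library gave 3688 to 6084 genes and 0 to 6 members, against 6695 and 6. For cluster against white root, it gave 2 to 251 genes, against 62, and DESeq2 called 818 genes and 1 member. For replicate number, it gave 1 to 2 members. The replicate number as a block gave 12419 genes and 12 members for stage, against 11329 and 10, and no other result was fitted with that block. Wild leaf depth and 1 library per hydroponic condition limit all values.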
